A study of Mus musculus with 5 samples.

Results

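The 6 genes of leptin and insulin signalling followed here, Stat3, Ptpn1, Lepr, Insr, Irs2 and Socs3, were measured in the mouse ventromedial hypothalamus (VMH) after electroconvulsive seizures (ECS). Members were the probe sets annotated to these 6 symbols on an Affymetrix mouse array. There were 14 such probe sets among 22690, and the 6 genes were among 12393 genes with an unambiguous probe set. The array measures each gene by 1 or more probe sets, groups of short oligonucleotides that report 1 hybridisation signal each. Of the 14 probe sets, 7 were bright enough to be judged, and they covered 4 genes, Stat3, Ptpn1, Irs2 and Insr. No probe set of the leptin receptor gene Lepr or of the feedback inhibitor gene Socs3 was bright enough.

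Leptin from fat and insulin from the pancreas both act on hypothalamic neurons to curb food intake and adjust glucose and energy use. Leptin binding to its receptor lets the kinase JAK2 activate the transcription factor STAT3, which switches on Socs3 among other genes, and SOCS3 protein in turn blocks the receptor complex. The insulin receptor acts through IRS adaptors and phosphatidylinositol 3-kinase, and the tyrosine phosphatase PTP1B, encoded by Ptpn1, removes the activating phosphates from both JAK2 and the insulin receptor. In the VMH, leptin signalling in neurons marked by Nr5a1 is known for its part in energy expenditure and resistance to weight gain.

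All animals were C57Bl/6 mice under isoflurane. Of the ECS groups, those given 1 shock had their brains collected either 2 h or 6 h later, and those given 7 shocks either 2 h or 6 h after the last. Sham animals were handled alike without current and collected at 2 h, so the 6 h groups have no sham of their own time. Ear clip electrodes delivered each shock, at 25 mA for 1 sec with a pulse width of 0.5 msec and a frequency of 100 pulses/sec. The nucleus was taken by laser microdissection, and each group is represented by 1 array of amplified RNA from a pool of 2 or 3 animals. The labels used here give neither the age nor the sex of the animals. Because no group had a second array, neither a replicate error nor a significance test could be computed, and the precision is limited by having 5 arrays in all. Differences were called by size alone, where they reached 2-fold (1 on the log2 scale). In such bulk tissue, fewer cells of a type and less RNA per cell cannot be told apart.

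The median deposited signal per array was between 20.3 and 31.6, and the ECS arrays were shifted from sham on the log2 scale, after 1 shock by -0.13 at 2 h and 0.40 at 6 h, and after 7 shocks by 0.50 at 2 h and 0.49 at 6 h. Log2 differences below were taken after each array was centred on its median and are relative to these shifts, whereas signals are as deposited. After centring, 48.0% to 49.4% of the genes past 2-fold against sham were higher. Without centring the share after 1 shock was 33.6% at 2 h and 83.0% at 6 h, and after 7 shocks 90.2% at 2 h and 88.6% at 6 h. The 3' to 5' signal ratio of the Gapdh controls was 8.77, 5.37, 5.88 and 5.55 on the ECS arrays in the order above and 6.67 on sham. That of the actin controls was 0.89, 1.10, 0.78 and 0.59 on the ECS arrays and 0.80 on sham, so the 2 controls ordered the arrays differently. The VMH factor Nr5a1 read 50.4, 173.3, 145.6 and 152.1 on the ECS arrays and 78.5 on sham. A descriptive field of the samples says PVN. Of the 5 paraventricular and supraoptic markers on the array only Oxt and Trh were bright enough on average to be kept, while Sim1, Otp and Avp were not. Avp nevertheless read 5.1, 53.5, 54.8 and 34.4 on the ECS arrays and 7.1 on sham, above the array median except at 2 h after 1 shock and on sham. Oxt read 20.2, 11.5, 61.8 and 60.1 on the ECS arrays and 12.6 on sham.

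Which of the members could be judged was settled by brightness. A probe set was kept if its mean log2 signal over the 5 arrays was in the top 50% of all probe sets, and otherwise it was called too dim to judge. As a second yardstick, 71 probe sets of 46 genes typical of testis, mammary gland, pancreas and other unrelated tissues were read on the same arrays. Their 90th percentile was 11.5, 16.3, 19.6 and 17.1 on the ECS arrays and 11.8 on sham. Of the 70 member values, 38 lay above that level, comprising 10 of 15 for Stat3, 10 of 10 for Ptpn1, 10 of 10 for Insr, 5 of 5 for Irs2, 3 of 15 for Socs3 and 0 of 15 for Lepr. All 35 values of the 7 kept probe sets were above it, as were at least 98.28% of all kept probe sets on each array.

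**Figure D1:**
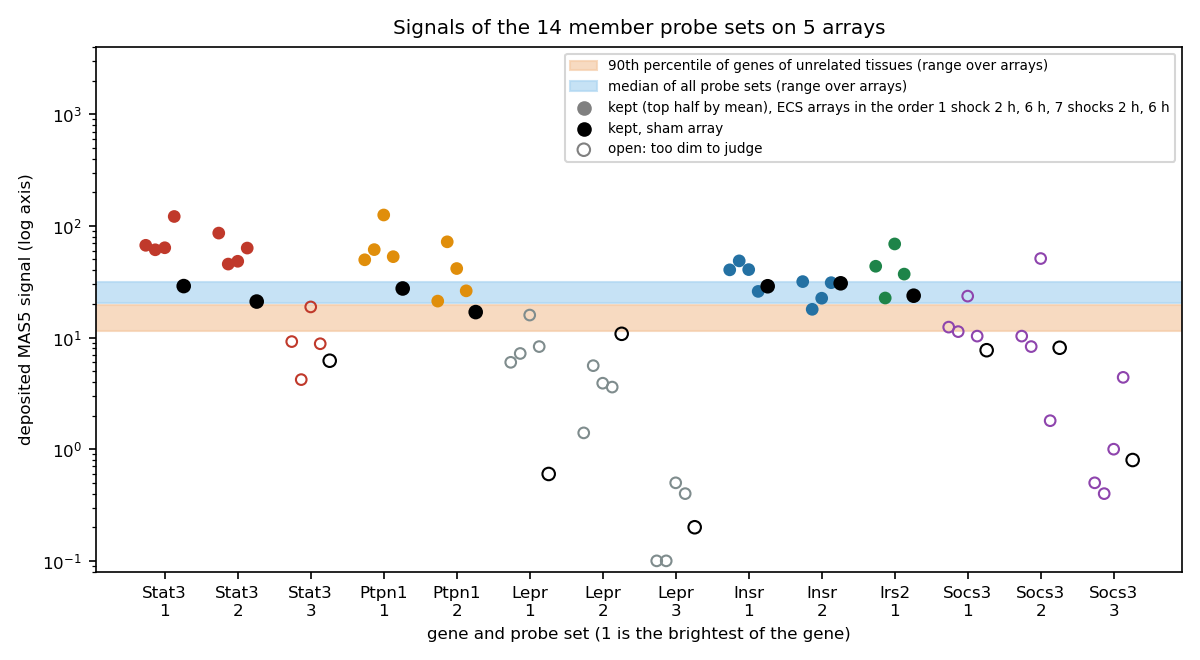
Deposited MAS5 signal (log axis) of the 14 member probe sets on the 5 arrays, with ECS arrays in colour and sham in black; open circles mark probe sets too dim to judge. The kept probe sets of Stat3, Ptpn1, Insr and Irs2 lie above the orange range of 11.5 to 19.6, the 90th percentile of genes of unrelated tissues on the 5 arrays, apart from values of 16.9 and 17.9 that still exceed the level of their own array, whereas every Lepr value lies below the level of its own array.

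Stat3, the transcription factor that carries the leptin signal to the nucleus, was higher on all 4 ECS arrays than on sham on both of its kept probe sets. Probe set 1460700_at read 67.0 at 2 h and 61.1 at 6 h after 1 shock and 63.7 at 2 h and 121.4 at 6 h after 7 shocks, against 28.9 in sham. Probe set 1426587_a_at read 86.2 and 45.5 after 1 shock and 48.2 and 63.3 after 7 shocks, at the same times, against 21.0 in sham. On both probe sets the sham array was the lowest of the 5, and the ECS arrays at 2 h after 1 shock and at 6 h after 7 shocks were the highest pair, in opposite order. No ECS signal overlapped the sham signal, but each side of that statement is 1 array per group. These are deposited signals, and the arrays at 6 h after 1 shock and after 7 shocks were shifted up from sham. Even after centring, 19.8% of all 6645 genes were above sham on all 4 ECS arrays on their brightest kept probe set.

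After centring, the brighter probe set 1460700_at gave Stat3 log2 differences from sham of 1.31 at 2 h and 0.65 at 6 h after 1 shock. After 7 shocks they were 0.60 at 2 h and 1.54 at 6 h. The other kept probe set gave 2.11 and 0.68 after 1 shock and 0.65 and 1.05 after 7 shocks. Stat3 thus passed 2-fold on both probe sets at 2 h after 1 shock (2.48-fold on the brighter) and at 6 h after 7 shocks (2.91-fold). The dimmer kept probe set, 1426587_a_at, read 21.0 on sham, below that array's median of 23.4. Only on the 4 ECS arrays was it above the median. It was therefore judged through the arrays where it was high, so its agreement with the brighter probe set gives no separate support. The remaining pair of ECS arrays stayed under 2-fold on both after centring, and passed it without centring, at 1.05 and 1.11 on the brighter probe set.

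The background for these counts was as follows. At 2 h after 1 shock Stat3 was the only one of the 4 judged members past 2-fold, in the higher direction, where 5.97% of all 6645 genes passed. At 6 h after 7 shocks it was again the only one, against 6.77% of all genes. Stat3 fell in the second dimmest of 4 equal brightness bins of kept genes, of which 8.79% and 7.83% were at least 2-fold higher in these comparisons. Among the 2466 genes with at least 2 kept probe sets, 0.892% and 0.73% were 2-fold higher on both of the brightest probe sets in the comparisons, and 5 genes, Stat3 included, were so in both. That pattern was taken from the values of Stat3 itself, so these shares and the count of 5 are no test of Stat3. These comparisons share the sham array.

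In the comparisons without sham, Stat3 at 6 h against 2 h was lower after 1 shock and higher after 7 shocks. It differed by -0.66 after 1 shock and by 0.94 after 7 shocks on the brighter probe set, and by -1.43 and 0.40 on the other. At 2 h, 7 shocks against 1 gave -0.71 and -1.46 on the probe sets, and at 6 h 0.89 and 0.38. The signs were the same on both probe sets in each of these 4 comparisons, while only the -1.43 and -1.46 passed 2-fold. The 4 comparisons are built from the same 4 arrays, so these are not 4 separate agreements. Among genes past 2-fold on their brightest probe set, which Stat3 was not here, 60.3% to 67.3% had the same sign on the second. Without centring, the brighter probe set gave -0.13 for 6 h against 2 h after 1 shock and -0.07 for 7 shocks against 1 at 2 h. Whether the time course differs between numbers of shocks could not be tested with 1 array a group. The third Stat3 probe set, 1424272_at, read 9.2, 4.2, 18.8 and 8.8 on the ECS arrays and 6.2 on sham and was too dim to judge.

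Ptpn1, whose product is the phosphatase that ends leptin and insulin receptor signalling, was also lowest on the sham array on both of its kept probe sets. Like the dimmer kept probe set of Stat3, the brighter one of Ptpn1 carries the suffix a, which marks probes shared by several transcripts of a gene. Probe set 1417068_a_at read 49.7 at 2 h and 61.3 at 6 h after 1 shock and 125.2 at 2 h and 53.0 at 6 h after 7 shocks, against 27.5 in sham. Probe set 1438670_at read 21.2, 72.0, 41.5 and 26.2 in the same order, against 16.9 in sham. Both put all 4 ECS arrays above sham, yet they disagreed on which was highest, 7 shocks at 2 h on the first and 1 shock at 6 h on the second. The second was near the cutoff for being kept, with a mean brighter than 53.95% of all probe sets. It lay below the median of its array on sham and at 6 h after 7 shocks.

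The log2 differences of Ptpn1 from sham were 0.96 and 0.73 at 2 h and 6 h after 1 shock, and 1.63 and 0.43 at 2 h and 6 h after 7 shocks, on 1417068_a_at. On 1438670_at they were 0.44, 1.62, 0.73 and 0.11. At 2 h after 7 shocks Ptpn1 was the only judged member past 2-fold, at 3.10-fold higher on its brighter probe set, where 6.56% of all genes were called higher. That call was lost on the other probe set, whose difference was 0.73. At 6 h after 1 shock none of the 4 judged members passed 2-fold on its brightest probe set, where 14.1% of all genes did in either direction. Of the 2466 genes with at least 2 kept probe sets, 5.52% were above sham on all 4 ECS arrays on both, and among the 3 members with 2 kept probe sets Stat3 and Ptpn1 were, while Insr was not. For Ptpn1 this includes the probe set near the brightness cutoff.

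Between times, Ptpn1 at 6 h against 2 h after 7 shocks differed by -1.20, the only judged member past 2-fold lower there, with 6.67% of all genes called lower. The other probe set gave -0.62. At 6 h against 2 h after 1 shock the probe sets went opposite ways, at -0.23 and 1.18. For 7 shocks against 1, Ptpn1 differed by 0.67 at 2 h and by -0.30 at 6 h, and by 0.29 and -1.51 on the other probe set.

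Some marker lists were lowest on sham as well, after centring. The summed rescaled signal of 7 kept VMH markers of 10 listed was 2770 to 3498 on the ECS arrays and 2469 on sham. At 2 h after 1 shock the higher sum came from Adcyap1 and Lamp5, with log2 differences of 0.56 and 0.92, whereas Nr5a1, Gda, Cbln1, Rreb1 and Slc17a6 stood at -0.49, -0.86, -0.18, -0.29 and -0.01. For 8 of 8 general neuron markers it was 13810 to 15560 on the ECS arrays and 13200 on sham, and for 6 of 9 oligodendrocyte markers 5115 to 5716 on the ECS arrays and 5006 on sham. Such sums weigh the brightest genes most, and not every neuron marker was lowest on sham. Rbfox3 read 46.2 and 58.2 at 2 h and 6 h after 1 shock against 86.3 in sham. Snap25 read 5502.4 and 7123.8 there against 5275.7. Astrocyte markers (8 of 8) summed to 4078 to 4764 on the ECS arrays and 4351 on sham, and microglial markers (6 of 9) to 1684 to 1940 on the ECS arrays and 1844 on sham. Of the lists for other hypothalamic sites, PVN and supraoptic markers (2 of 6) summed to 142.8 to 209.4 on the ECS arrays and 125.9 on sham, and arcuate markers (4 of 8) to 557.8 to 1046 on the ECS arrays and 784.6 on sham. Endothelial and pericyte markers (4 of 10) summed to 279.9 to 508.4 on the ECS arrays and 416.6 on sham, and of the ependymal and tanycyte list only Crym was kept, at 10.9 to 74.9 on the ECS arrays and 29.4 on sham. The part of these lists in the Stat3 and Ptpn1 differences was not tested. No marker on the array from these lists was at 0 on all of its probe sets on any array.

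Irs2, the insulin receptor substrate that couples the receptor to phosphatidylinositol 3-kinase in hypothalamus, was higher at 2 h than at 6 h among the ECS arrays after the same number of shocks, while sham, itself a 2 h array, read close to the 6 h array after 1 shock. Its single probe set, 1443969_at, read 43.5 at 2 h and 22.6 at 6 h after 1 shock and 68.9 at 2 h and 37.0 at 6 h after 7 shocks, against 23.7 in sham. The 2 h ECS arrays were the highest pair, and the 6 h array after 1 shock lay below sham. At 2 h the log2 differences from sham were 0.98 after 1 shock and 0.99 after 7 shocks (1.97-fold and 1.98-fold), just under the 2-fold threshold. At 6 h they were -0.46 after 1 shock and 0.13 after 7 shocks. With quantile normalization the 2 h values were 1.08 and 1.08, just past it.

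At 6 h against 2 h, Irs2 differed by -1.44 after 1 shock and by -0.86 after 7 shocks, comparisons that share no array. It was the only judged member past 2-fold lower after 1 shock, where 7.57% of all genes were called lower, and it lay lower than all but 3.06% of genes there. Irs2 fell in the dimmest of 4 brightness bins of kept genes, of which 14.1% were at least 2-fold lower in that comparison. Its 22.6 at 6 h after 1 shock lay below that array's median of 26.9. After 7 shocks 8.95% of genes lay below Irs2. The contrast of 7 shocks with 1 gave 0.01 at 2 h and 0.59 at 6 h. Without centring the 6 h against 2 h difference after 1 shock was -0.91.

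Insr, the insulin receptor gene, was on the same side of sham on both of its kept probe sets in 3 of the 4 comparisons after centring, higher at 2 h after 1 shock and lower at both times after 7 shocks, and on opposite sides at 6 h after 1 shock. Probe set 1421380_at read 40.4 and 48.6 at 2 h and 6 h after 1 shock and 40.6 and 25.9 after 7 shocks, against 28.8 in sham, and probe set 1450225_at read 31.7, 17.9, 22.5 and 31.0, against 30.6. The ECS signals lay on both sides of sham on each. Probe set 1450225_at was at the cutoff for being kept, with a mean brighter than 50.71% of all probe sets. Its 17.9 and 22.5 lay below the medians of their arrays, 26.9 and 31.6. Log2 differences from sham were 0.60, 0.33, -0.03 and -0.63 on the brighter probe set, in the order 1 shock at 2 h and 6 h and 7 shocks at 2 h and 6 h, and 0.18, -1.13, -0.93 and -0.47 on the other. The -0.03 at 2 h after 7 shocks became 0.04 with quantile normalization, so the lower side there rests on the dimmer probe set. Without centring the probe sets were on the same side of sham only at 2 h after 1 shock, with differences of 0.47, 0.73, 0.48 and -0.15 on the brighter and 0.05, -0.74, -0.42 and 0.02 on the other. For 7 shocks against 1 at 2 h both probe sets were lower, at -0.63 and -1.11. At 6 h the same contrast gave -0.97 and 0.66. In these comparisons of 7 shocks with 1 none of the 4 members passed 2-fold on its brightest probe set, where 13.8% of genes did in either direction at 2 h and 16.6% at 6 h.

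**Figure D2:**
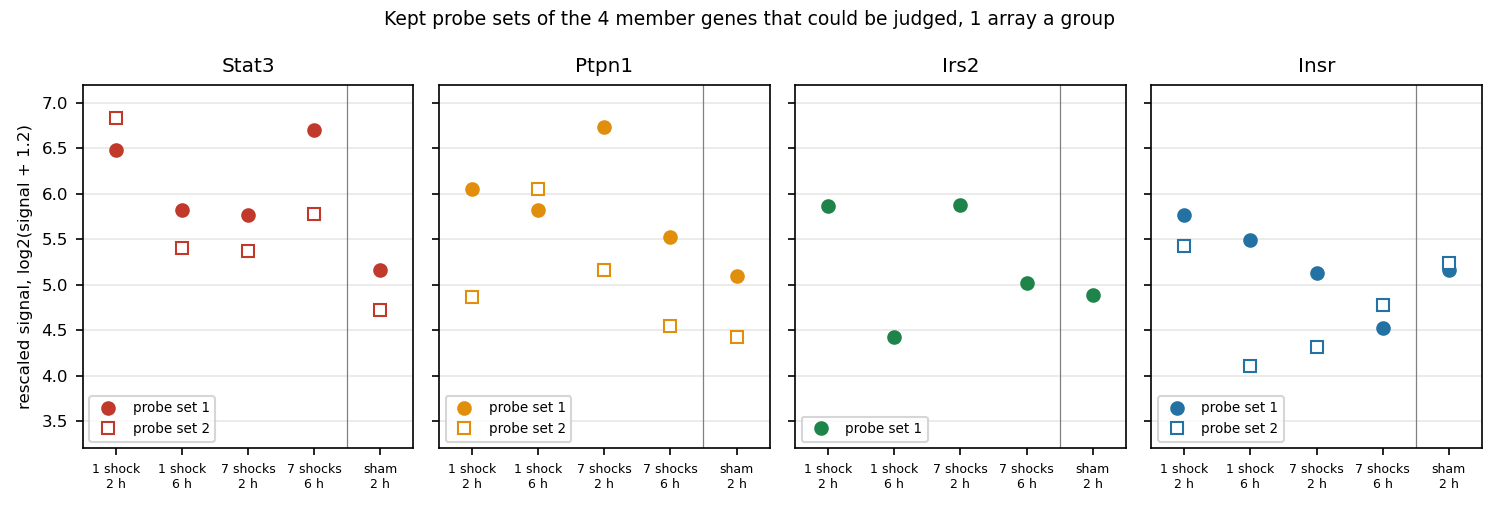
Rescaled signal, as log2 of the centred signal plus 1.2, of the 7 kept probe sets of Stat3, Ptpn1, Irs2 and Insr, 1 point per array, with the ECS arrays left of sham and filled circles for the brightest probe set of a gene. Sham is the lowest point on both probe sets of Stat3 and of Ptpn1, and Irs2 is highest on the 2 h ECS arrays; levels of different probe sets cannot be compared with each other.

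The leptin receptor gene Lepr could not be judged. Probe set 1425875_a_at read 6.0, 7.2, 15.9 and 8.3 on the ECS arrays and 0.6 on sham, while 1425873_a_at read 1.4, 5.6, 3.9 and 3.6 on the ECS arrays and 10.8 on sham. The first puts every ECS array above sham and the second every ECS array below it, so the 2 probe sets of the same gene pointed in opposite directions. The third, 1425644_at, read between 0.1 and 0.5 on all 5 arrays. Of the 15 Lepr values, 9 were below the 25th percentile of their array. Of 5 markers on the array for the choroid plexus, a tissue known for strong Lepr expression, 0 were kept, and its defining transport protein gene Ttr read 0.3 to 28.7 over 3 probe sets. At 6 h after 7 shocks Ttr at 28.7 and Kl at 18.7, each on 1 probe set, lay above the unrelated-tissue level of 17.1. The part of these markers in the Lepr values was not tested.

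Socs3, the STAT3-induced inhibitor of the leptin receptor, was also too dim on all 3 probe sets. Probe set 1455899_x_at read 12.4, 11.3, 23.5 and 10.3 on the ECS arrays and 7.7 on sham. Probe set 1456212_x_at read 10.3, 8.3, 51.0 and 1.8 on the ECS arrays and 8.1 on sham, and 1416576_at read 0.5, 0.4, 1.0 and 4.4 on the ECS arrays and 0.8 on sham. Both probe sets with the suffix x, which marks probes that may hybridise to other transcripts, were highest at 2 h after 7 shocks, where 51.0 exceeded the array's median of 31.6. The third was highest at 6 h after 7 shocks, at 4.4, below that array's 25th percentile of 7.3. Of the 15 Socs3 values, 6 were below the 25th percentile of their array, so no direction is given for the gene.

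**Figure D3:**
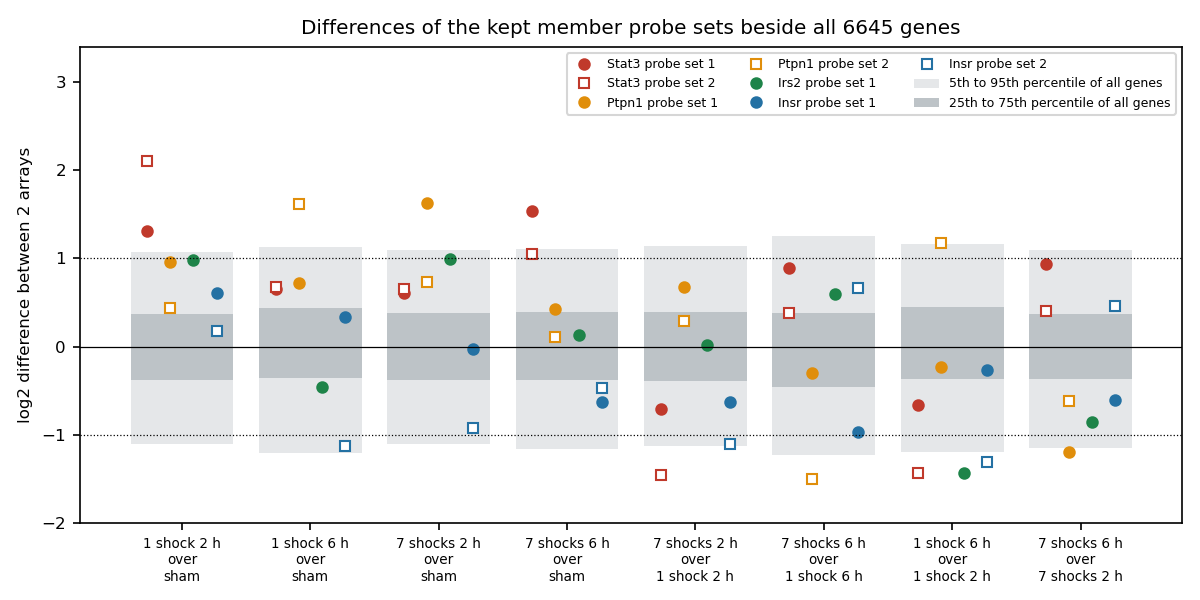
Log2 differences between 2 arrays for the 7 kept member probe sets in the 8 comparisons, with grey boxes for the 5th to 95th and 25th to 75th percentiles of all 6645 genes and dotted lines at 2-fold. Both Stat3 probe sets lie past 2-fold at 2 h after 1 shock (1.31 and 2.11) and at 6 h after 7 shocks (1.54 and 1.05), while the probe sets of Ptpn1 and Insr are often far apart. The dimmer Stat3 probe set was below the array median on sham.

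Over the 4 judged members together, the median log2 difference from sham after 1 shock was 0.97 at 2 h and 0.49 at 6 h, where all genes had medians of 0.01 and 0.06. After 7 shocks it was 0.80 at 2 h and 0.28 at 6 h, with 0.01 over all genes in each. These medians describe 4 genes on the same arrays, chosen with earlier results of these data known, and were not tested. The 4 genes lay in the dimmest and second dimmest of 4 brightness bins, where more genes passed 2-fold than in the brighter bins. The profiles of the 4 members over the 5 arrays were not alike. As a measure of likeness, the root mean square difference between centred log2 profiles, each with its own mean removed, was 0.452 for Ptpn1 and Irs2 and between 0.593 and 0.747 for the other pairs. For Ptpn1, 9.74% of all genes were closer than Irs2 was. The 2 genes closest to each member were Mapk11, a p38 kinase, and Zfp326 for Stat3 (0.144 and 0.148) and Cit, the citron kinase, and Fxyd1, a regulator of the sodium pump, for Ptpn1 (0.104 and 0.117). They were Hnrnpul2 and Mroh1 for Irs2 (0.128 and 0.140) and Fam207a and Eola1 for Insr (0.0571 and 0.0573). Each was the closest among 6645 genes over only 5 arrays.

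The promoters of the members that stood above sham on every ECS array and kept probe set, Stat3 and Ptpn1, and of the classical STAT3 target Socs3 are printed for orientation, from 250 bases before to 50 bases after the annotated start, 5' to 3' on the gene's strand, from RefSeq on GRCm38.p6. The windows are chr11:100939491-100939790 on the minus strand for Stat3, chr2:167932077-167932376 on the plus strand for Ptpn1 and chr11:117969317-117969616 on the minus strand for Socs3. Capitals mark matches on either strand to the STAT motif TTCNNNGAA, the AP-1 motif TGANTCA, the cAMP response element TGACGTCA or the Egr motif GCGNGGGCG, searched because these factors act after leptin or after neuronal activity.
Stat3: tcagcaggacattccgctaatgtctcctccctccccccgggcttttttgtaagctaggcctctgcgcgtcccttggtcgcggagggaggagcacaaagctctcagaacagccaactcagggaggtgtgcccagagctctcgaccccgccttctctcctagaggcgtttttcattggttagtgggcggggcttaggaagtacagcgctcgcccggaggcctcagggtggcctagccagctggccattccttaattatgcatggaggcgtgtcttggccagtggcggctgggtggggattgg
Ptpn1: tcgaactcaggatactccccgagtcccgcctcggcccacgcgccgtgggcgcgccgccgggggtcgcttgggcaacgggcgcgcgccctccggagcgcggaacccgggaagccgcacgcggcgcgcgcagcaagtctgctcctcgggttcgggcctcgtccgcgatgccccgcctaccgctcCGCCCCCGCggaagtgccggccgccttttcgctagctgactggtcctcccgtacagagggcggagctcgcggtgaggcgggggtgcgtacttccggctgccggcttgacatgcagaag
Socs3: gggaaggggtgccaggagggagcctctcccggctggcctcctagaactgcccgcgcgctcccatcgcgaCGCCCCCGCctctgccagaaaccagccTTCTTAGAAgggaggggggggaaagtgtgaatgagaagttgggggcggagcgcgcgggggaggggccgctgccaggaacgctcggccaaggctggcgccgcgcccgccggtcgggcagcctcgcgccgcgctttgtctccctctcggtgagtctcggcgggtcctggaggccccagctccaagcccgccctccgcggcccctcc

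The Stat3 window holds none of the 4 motifs. In the Ptpn1 window 1 Egr match begins at position -68 from the start, and the Socs3 window has 1 Egr match at -181 and 1 STAT match at -154. No matches overlap. Of 32851 promoter windows of this length, 8.3% hold the STAT motif, 7.81% the AP-1 motif, 1.79% the cAMP element and 5.55% the Egr motif. Promoter windows were found for 5 of the 6 members, not for Insr. A match describes letters only, and its absence says only that these letters are not in the window.

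Beyond the members, 63 other genes of both pathways were listed, of which 54 were on the array and 37 were bright enough to be judged. At 2 h after 1 shock 7 of the 37 passed 2-fold, or 18.9% against 12.2% of all genes. These were 4 higher and 3 lower, where 5.97% of all genes were higher and 6.28% lower. At 6 h after 1 shock it was 3, or 8.11% against 14.1%, with 1 higher and 2 lower (6.76% and 7.33% of all genes). At 2 h after 7 shocks 4 were higher and 0 lower, or 10.8% against 13.3% of all genes (6.56% higher and 6.73% lower). At 6 h after 7 shocks 3 were higher and 1 lower, or 10.8% against 13.8% (6.77% and 7.07%). Sh2b1 was among the higher genes in all 4 comparisons and was the only one at 6 h after 1 shock. Eif4ebp2 was among them at 2 h after 7 shocks. Both genes, described below, were bright enough to be judged only through ECS arrays on which they were high, and the counts include them. The count at 6 h after 7 shocks also includes Pias3, whose sham signal of 19.4 was below that array's median of 23.4. The list medians were between 0.04 and 0.09, beside all-gene medians of 0.01 to 0.06. In this comparison of counts the pathway shares lay above that of all genes at 2 h after 1 shock and below it in the other 3 comparisons with sham. Without centring the share at 2 h after 7 shocks was above that of all genes (29.7% against 22.1%), and in the top 25% by mean the excess at 2 h after 1 shock was gone (4.76% against 4.77%).

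In the leptin receptor and JAK-STAT arm, with 14 judged genes, Sh2b1 was counted higher in all 4 comparisons with sham. It encodes the adaptor that binds JAK2 and strengthens leptin and insulin receptor signalling. It read 29.3 and 76.0 at 2 h and 6 h after 1 shock and 43.6 and 60.3 after 7 shocks, against 9.3 in sham. It rests on 1 probe set whose sham signal was below the 11.8 that marks genes of unrelated tissues on that array, and which was bright enough to be judged only through the ECS arrays, so no size of difference is given for it. Stat5b, another STAT factor downstream of JAK2, read 114.8 and 91.6 at 2 h after 1 and 7 shocks and 42.6 and 41.6 at 6 h after 1 and 7 shocks, against 27.5 in sham. The 2 h differences of Stat5b were 2.15 and 1.19, and those at 6 h were 0.21 and 0.09, on 1 kept probe set of 2. Pias3, named as an inhibitor of activated STAT3, was counted higher at 6 h after 7 shocks, with 68.7 against 19.4 in sham. It rests on 1 kept probe set of 2, whose sham signal was below that array's median of 23.4. The probe set was thus bright enough through the ECS arrays, and no size of difference is given for it.

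In the insulin receptor and phosphatidylinositol 3-kinase arm, with 23 judged genes, the named genes each passed 2-fold in 1 or 2 of the 4 comparisons with sham. Igf1r, the receptor for insulin-like growth factor 1, stood at -1.37 at 2 h after 1 shock and at 1.03 at 6 h after 7 shocks, reading 15.8 and 136.8 there against 47.1 in sham. It rests on 1 kept probe set of 2, and the 15.8 lay below that array's median of 20.3. Foxo3, a transcription factor kept out of the nucleus by Akt, was lower at 6 h after 1 shock (-1.73), with 66.0 against 167.9 in sham and all 3 of its probe sets lower. Gsk3a, a kinase that Akt inhibits, was at -1.10 on the same array, with 51.8 against 84.9. Eif4ebp2, a translation repressor controlled by mTOR, read 109.6 at 2 h after 7 shocks and 21.8 in sham. On the other ECS arrays it read 16.4 and 26.7 after 1 shock and 21.9 at 6 h after 7 shocks. All values but the 109.6 were below the median of their array. The gene rests on 1 kept probe set of 5, bright enough to be judged only through the array where it was high. No size of difference is therefore given for it.

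In the comparisons without sham, 5 of the 37 pathway genes passed 2-fold for 7 shocks against 1 at 2 h, or 13.5% against 13.8% of all genes. They were 5 higher and 0 lower, where 6.89% of all genes were higher and 6.86% lower. At 6 h the same contrast gave 3 higher and 2 lower (13.5% against 16.6%, with 7.9% and 8.67% of all genes). For 6 h against 2 h it was 2 higher and 5 lower after 1 shock (18.9% against 15.0%, with 7.42% and 7.57% of all genes) and 6 after 7 shocks (16.2% against 12.9%). All 6 after 7 shocks were lower at 6 h, where 6.67% of all genes were called lower and 6.28% higher, and 0 were higher. Eif4ebp2, bright enough only through the array at 2 h after 7 shocks, was among these 6 and among the 5 higher at 2 h.

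**Figure D4:**
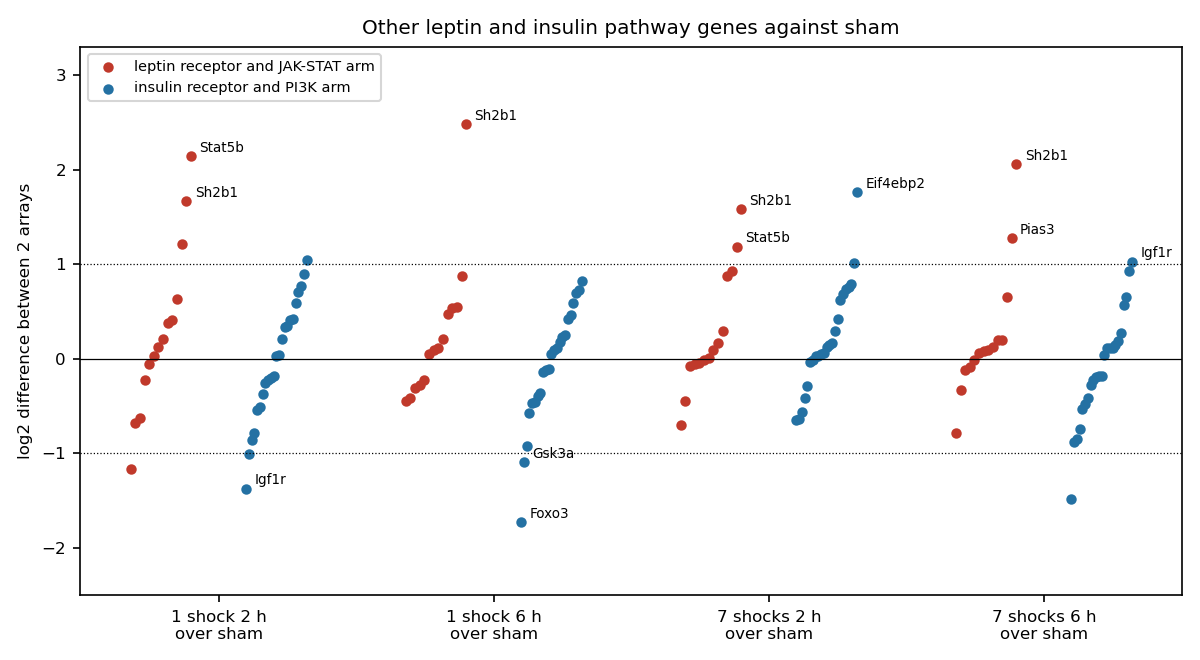
Log2 differences from sham of the 37 judged pathway genes, 1 point per gene, split into the leptin receptor and JAK-STAT arm (red, 14 genes) and the insulin receptor and PI3K arm (blue, 23 genes), with dotted lines at 2-fold. Most of the genes lie within 2-fold of sham, and the points of Sh2b1, past 2-fold on all 4 ECS arrays, are set against a sham signal of 9.3 that was below the unrelated-tissue level of 11.8.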

How the data were processed

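The deposited values are MAS5 signal intensities, 1 per probe set on a linear scale, as the submitters' processing notes and the table's range show. The software version, target intensity and detection calls are not stated in any source used. The authors pooled RNA of 2 or 3 animals per array, amplified 2 ng of it and hybridised 5 µg of labelled cDNA, per the labels' protocols. The design describes a repeat on other animals, which is not analysed here.

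Of 22690 probe sets, 20380 carry 1 gene symbol (20351 with a RefSeq gene ID), and 64 controls, 691 with several symbols and 1555 with none were set aside. Signals were log2 transformed with 1.2, their 10th percentile, as pseudocount. The brighter 50% by mean log2 were kept (10390, for 6645 genes), each array was centred on their median, and a gene took its kept probe set of highest mean. The 8 comparisons, 4 of them with sham, were log2 differences of 2 arrays over the whole table, with no test. Pathway genes past 2-fold against sham were named if all kept probe sets had 1 sign, up to 3 per comparison and 12 in all, and 2 genes of closest profile per member. The steps were run on simulated data with much less scatter between arrays than the real ones have. That run checked the code and says nothing on how reliable the 2-fold calls are. The members and lists were chosen with earlier results of these data known. Alternatives varied scaling, pseudocount, filter and choice of probe set. Python 3.11.15, numpy 2.4.6, pandas 2.3.3 and matplotlib 3.10.9 were used.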

Additional observations from a re-analysis of the deposited data

Results flagged for a closer look

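On both of its kept probe sets, Stat3 took opposite signs under the same contrast in different groups. For 6 h against 2 h it differed by -0.66 and -1.43 after 1 shock and by 0.94 and 0.40 after 7 shocks, on the brighter and the dimmer probe set. For 7 shocks against 1 it differed by -0.71 and -1.46 at 2 h and by 0.89 and 0.38 at 6 h. Both contrasts rest on the same 4 arrays. Ptpn1 likewise differed by 0.67 and 0.29 for 7 shocks against 1 at 2 h and by -0.30 and -1.51 at 6 h. With 1 array a group these differences between groups were not tested.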

How the results depend on the processing

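With 1 array per group, no group could lose a replicate and no paired analysis was possible because no sample has a replicate number. Of 256 alternative values of single member genes, 250 moved by less than 1 SD of the comparison's differences over all genes, 6 moved by more, and 0 of those past 2-fold changed sign. Stat3 kept its 2-fold calls at 2 h after 1 shock and at 6 h after 7 shocks under every alternative that kept the gene. The 6 that moved were Insr at 6 h after 1 shock against sham (-0.40) and at 6 h for 7 shocks against 1 (-0.15) as a mean of probe sets, and 4 Ptpn1 values on its second probe set alone, which were 1.61 and 0.73 against sham at 6 h after 1 shock and at 2 h after 7 shocks, 1.17 for 6 h against 2 h after 1 shock and -1.50 for 7 shocks against 1 at 6 h.

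Counts of members past 2-fold moved, and 3 differences of Ptpn1 and Irs2 from sham lie between 0.96 and 0.99. Against sham, the counts in the order 1 shock at 2 h and 6 h and 7 shocks at 2 h and 6 h were 1, 0, 1 and 1. They were 4, 1, 4 and 2 of 6 without the filter on dim probe sets, 1, 2, 3 and 1 without rescaling, 3, 0, 2 and 1 with quantile normalization, 2, 0, 2 and 1 with a pseudocount of 0, 1, 1, 1 and 1 with the mean of kept probe sets, and 1, 1, 0 and 1 without probe sets of suffix a, s or x (shared between transcripts or open to cross-hybridisation) where a gene had another, a setting that removes the brighter Ptpn1 and the dimmer Stat3 probe set. Of all genes, 24.5%, 28.1%, 26.1% and 27.6% passed without the filter, 13.0%, 20.5%, 22.1% and 22.3% without rescaling, and at most 14.9% under the others named. For 7 shocks against 1 at 2 h and 6 h and for 6 h against 2 h after 1 and 7 shocks the member counts were 0, 0, 1 and 1, and became 0, 1, 1 and 2 without the filter, 1, 0, 0 and 1 without rescaling, 0, 1, 1 and 1 with quantile normalization, 1, 0, 2 and 0 with the mean of probe sets and 0, 1, 2 and 0 without such suffixes. No member was in the top 25% by mean, so that setting gave no value for them.

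The pathway counts, in the same order of 8 comparisons, were 7, 3, 4, 4, 5, 5, 7 and 6 of 37. They were 14, 10, 14, 11, 15, 15, 14 and 18 of 54 without the filter, 6, 6, 11, 7, 14, 4, 11 and 6 without rescaling, and 1, 1, 0, 0, 2, 2, 1 and 2 of 21 in the top 25% by mean. The shares of all genes past 2-fold moved too, to 24.5% to 29.6% without the filter, 12.9% to 28.2% without rescaling and 4.77% to 8.39% in the top 25%. With the 25th percentile of all values (6.1) as pseudocount, the count at 2 h after 1 shock was 4, or 10.8% against 9.57% of all genes. With the mean of probe sets, 7 shocks against 1 at 2 h gave 3, or 8.11% against 12.6%. Beyond the number of genes judged, the cause was not tested. Dim signals limit Lepr and Socs3 altogether.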
